A study of Homo sapiens with 24 samples.

Results

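The genes described here encode 10 glycoproteins of the cartilage and stromal extracellular matrix: COMP, the matrilins MATN2 and MATN3, the thrombospondins THBS1 and THBS2, tenascin C (TNC), periostin (POSTN), fibronectin (FN1) and the fibrillins FBN1 and FBN2. The list is set by gene name and not by a threshold on a measured value, although it was drawn up with earlier results of these data known. The names were matched by symbol to the Ensembl identifiers of the count tables, where they make up 10 of 62703 genes. 9 of the 10 had enough reads to be tested among 16600 tested genes, and TNC had 0 reads in every library.

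RNA-seq of poly(A) RNA was analysed in 24 libraries of T/C-28a2, an immortalised human chondrocyte line, with 4 libraries in each of 6 groups. WT Ctr and WT Sor are wild-type cells in isotonic medium and in medium with 100 mM sorbitol for 7 days, respectively, where sorbitol raises the osmolarity. WNK2 trans Ctr and WNK2 trans Sor are wild-type cells transfected for 48 hours with a plasmid that encodes WNK2, a kinase of the osmotic stress response, and then kept in isotonic medium or given the same 7 days of sorbitol. The remaining groups, WNK2- with and without sorbitol, are cells of a clonal line in which CRISPR/Cas9 removed exon 2 of WNK2, kept in isotonic medium (WNK2- Ctr) or in 100 mM sorbitol for 7 days (WNK2- Sor). The comparisons share their control groups, WT Ctr and WT Sor among them. All groups share the same parental line and serum-containing medium, and no group received an empty plasmid. The deletion and the history of a clonal line cannot be told apart.

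Matrix glycoproteins connect the collagen and proteoglycan networks of a tissue to each other and to the cells. COMP and the matrilins bind collagen fibrils in cartilage, fibronectin assembles into fibrils through integrins, periostin and tenascin C are made during growth and repair of connective tissue, thrombospondins act on cell adhesion and on growth factors, and fibrillins polymerise into microfibrils that hold latent TGF-beta. COMP and MATN3 are best known for skeletal dysplasias, FBN1 for Marfan syndrome, and fragments of COMP and fibronectin for their release from worn cartilage.

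The libraries held 14153002 to 25664619 counted reads each. Levels are CPM, counts scaled to a common effective library size by TMM factors, and fold changes come from edgeR's quasi-likelihood test in 1 fit of all 24 libraries, adjusted by the Benjamini-Hochberg method over all tested genes and called at an adjusted p under 0.05. WNK2 itself, the gene that was deleted or transfected, ran from 78.5 to 185.6 CPM in the libraries labelled WT Ctr and from 9.98 to 16.1 CPM in those labelled WNK2 trans Ctr, so that transfected cells held less WNK2 than untransfected ones, against the labels. The gene ran from 16.9 to 22.8 CPM over both WNK2- groups, below WT Ctr and above WNK2 trans Ctr. It ran from 122.3 to 206.5 CPM in WNK2 trans Sor, and from 15.4 to 17.4 CPM in WT Sor, which overlapped the low end of the WNK2- range. Which labels, if any, are at fault cannot be told apart. Comparisons of the members that rest on WT Ctr or WNK2 trans Ctr are therefore given as labelled and also with the other of these groups in its place. Of 15 chondrocyte markers 8 had a mean of at least 1 CPM, and the list summed to 92.2 to 175 CPM in the wild-type and transfected libraries and to 29.1 to 35 CPM in the WNK2- libraries. HAPLN1, at 12.5 to 162 CPM with a mean of 57.7 CPM, had the largest part in this sum. COL9A3 came next with a mean of 7.72 CPM, and ACAN and COL2A1 had means of 3.42 and 3.22 CPM. The chondrocyte sums given below thus follow mainly HAPLN1. SOX9 and CHAD of the chondrocyte list had 0 reads throughout, as did most protein-coding genes that, like them, lie wholly inside another gene (next paragraph). Their 0 is therefore not read as absence of the transcripts. Fibroblast and mesenchymal markers, 6 of 10 at a mean of at least 1 CPM, summed to 2270 to 8730 CPM, with THY1 at 0. COL1A1, with a mean of 2520 CPM, and COL6A3, with 1640 CPM, had the largest parts in this sum. COL3A1 and VIM had means of 424 and 337 CPM, and COL1A2, DCN and PDGFRA had means of 0.315, 0.433 and 0.969 CPM. The fibroblast sums given below thus follow mainly COL1A1 and COL6A3. Endothelial, leukocyte and epithelial markers, 5 in each list, summed to at most 109, 20.1 and 5.97 CPM. WT Ctr replicate 2 stood farthest from the others of its group and had the fewest genes detected, 17619.

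TNC (ENSG00000041982, GRCh38 chromosome 9, 115019578 to 115118257, minus strand) had 0 reads in 24 of 24 libraries. For a single library, a count of 0 allows an expected count of up to 3 reads at the 95% level, or 0.117 to 0.212 CPM depending on the library. The bound over all 24 libraries together would be lower. The gene lies wholly inside DELEC1, a gene on the opposite strand, and such genes were at 0 far more often than others. Among protein-coding genes that lie wholly inside another gene, 1508 of 1538 (98.0%) had 0 reads in all libraries, and of those nested in a gene on the other strand 1043 of 1057 (98.7%) did. The share was 7.63% (849 of 11133) for genes that partly overlap or hold another gene and 10.8% (775 of 7185) for genes without overlap. SOX9, CHAD and THY1 lie inside other genes too. The 0 of TNC is therefore not read as absence of its transcript, and why nested genes were at 0 was not tested.

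**Figure D1:**
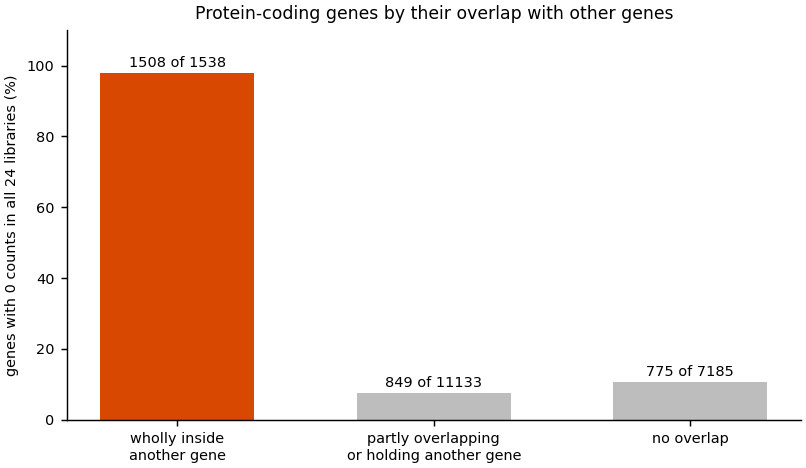
Share of protein-coding genes with 0 reads in all 24 libraries (y axis, percent), by whether the gene lies wholly inside another gene, partly overlaps or holds one, or overlaps none (x axis). The first bar, to which TNC belongs, reaches 98.0%, against 7.63% and 10.8% in the other classes.

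The same overlaps touch other members. COMP, POSTN and FN1 share no base with another gene, while the exonic bases that lie outside every other gene were 94.3% of the exonic length in FBN2, 56.9% in MATN2, 27.4% in MATN3, 26.1% in THBS2 and 20.8% in THBS1. FBN1 holds an intronic gene and no shared exonic base. Where reads in shared bases were not counted, levels of THBS1, THBS2 and the matrilins are too low relative to the other members. Comparisons of 1 gene between groups then use the same bases in every group. Whether the share of reads in these bases differed between groups was not tested. The use of strand in counting is not given in the sources used here.

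Promoter sequences of 9 of the 10 genes, all but MATN2 and with TNC among them, were found in RefSeq (GRCh38.p14, 250 bases before to 50 after the start). The 9 searched genes are thus not the 9 tested members. For 4 members, POSTN, THBS2, FN1 and THBS1, 30 bases around the usual place of a TATA box are shown. Over the 24 libraries the levels of POSTN, THBS2 and FN1 followed each other, and those of THBS1 went the other way. Within groups this did not hold for all pairs, as given below. The windows run 5′ to 3′ on the strand of the gene, from 40 to 11 bases before the start, and capitals mark TATAAA.
POSTN, chr13:37598779-37598808, minus strand: tctgacatgtaTATAAAttctgagctctcc
THBS2, chr6:169253857-169253886, minus strand: gagaagcggcaTATAAAgccgcgctgcccg
FN1, chr2:215436079-215436108, minus strand: gggaccgtcccatataagccccggctcccg
THBS1, chr15:39581039-39581068, plus strand: cgagcgcccctttaaaagcgcgcggctcct
POSTN and THBS2 thus hold the same hexamer with its first base 29 bases before the start. On either strand and anywhere in the 300-base window, TATAAA was present in these 2 of the 9 members, with an additional reverse match in POSTN, and in 11.5% of 35116 promoters.

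The TonE element, the binding motif of the osmotic stress factor NFAT5, was searched by its consensus on both strands and was present in 1 of the 9 member promoters, that of THBS1, and in 4.92% of all promoters. It is shown in capitals in the stretch from 160 to 131 bases before the THBS1 start.
THBS1, chr15:39580919-39580948, plus strand: ctttctagcTGGAAAGTTGCgcgccaggca
An AP-1 site (TGANTCA) was present in POSTN alone of the 9 and in 7.71% of promoters, and a cAMP response element (TGACGTCA) in FN1 alone and in 1.85%. The TEAD site GGAATG was present in 5 of the 9 (COMP, MATN3, THBS1, THBS2 and FBN1) and in 14.0% of promoters. CCAAT was found in 3 of 9 (THBS1, FN1 and FBN2) against 34.6% of promoters, and the GC box GGGCGG in 6 of 9 against 45%. No matches of different motifs shared a base in the member promoters. These matches describe letters in a window, not bound sites.

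The members spanned a wide range of levels. FN1 (ENSG00000115414, chromosome 2, 215360440 to 215436172, minus strand) had a mean of 18320 CPM over the 24 libraries and took 0.779% to 2.98% of all counted reads. Per kilobase of exon, FN1 stood at 1058 CPM, the 99.9th percentile of tested genes. THBS1 (ENSG00000137801, chromosome 15, 39581079 to 39599466, plus strand) followed with 57.0 and POSTN (ENSG00000133110, chromosome 13, 37562583 to 37598844, minus strand) with 45.5 CPM per kilobase. The fibrillins FBN1 (ENSG00000166147, chromosome 15, 48408306 to 48645849, minus strand) and FBN2 (ENSG00000138829, chromosome 5, 128257909 to 128659185, minus strand) lay close together at 10.1 and 9.14 CPM per kilobase.

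Per kilobase of exon, THBS2, MATN3 and COMP had the lowest levels. THBS2 (ENSG00000186340, chromosome 6, 169215780 to 169254044, minus strand) had 2.48 CPM per kilobase. MATN3 (ENSG00000132031, chromosome 2, 19992111 to 20012694, minus strand) had 0.918 and COMP (ENSG00000105664, chromosome 19, 18782773 to 18791314, minus strand) 0.465 CPM per kilobase, the 26.2nd and 17.1st percentiles. COMP rested on 0 to 64 reads a library and MATN3 on 5 to 117, so their fold changes carry the largest errors. With exonic bases outside other genes as the length, a choice made after the nested genes were seen, THBS1 rose to 273.4, THBS2 to 9.49 and MATN3 to 3.35 CPM per kilobase, while the values of COMP, POSTN and FN1 stayed where they were.

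MATN2 (ENSG00000132561, GRCh38 chromosome 8, 97868840 to 98036716, plus strand), a matrilin found also outside cartilage, had 2.93 CPM per kilobase of exon and 5.15 by the bases outside other genes. It shares an end with RPL30 on the opposite strand.

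**Figure D2:**
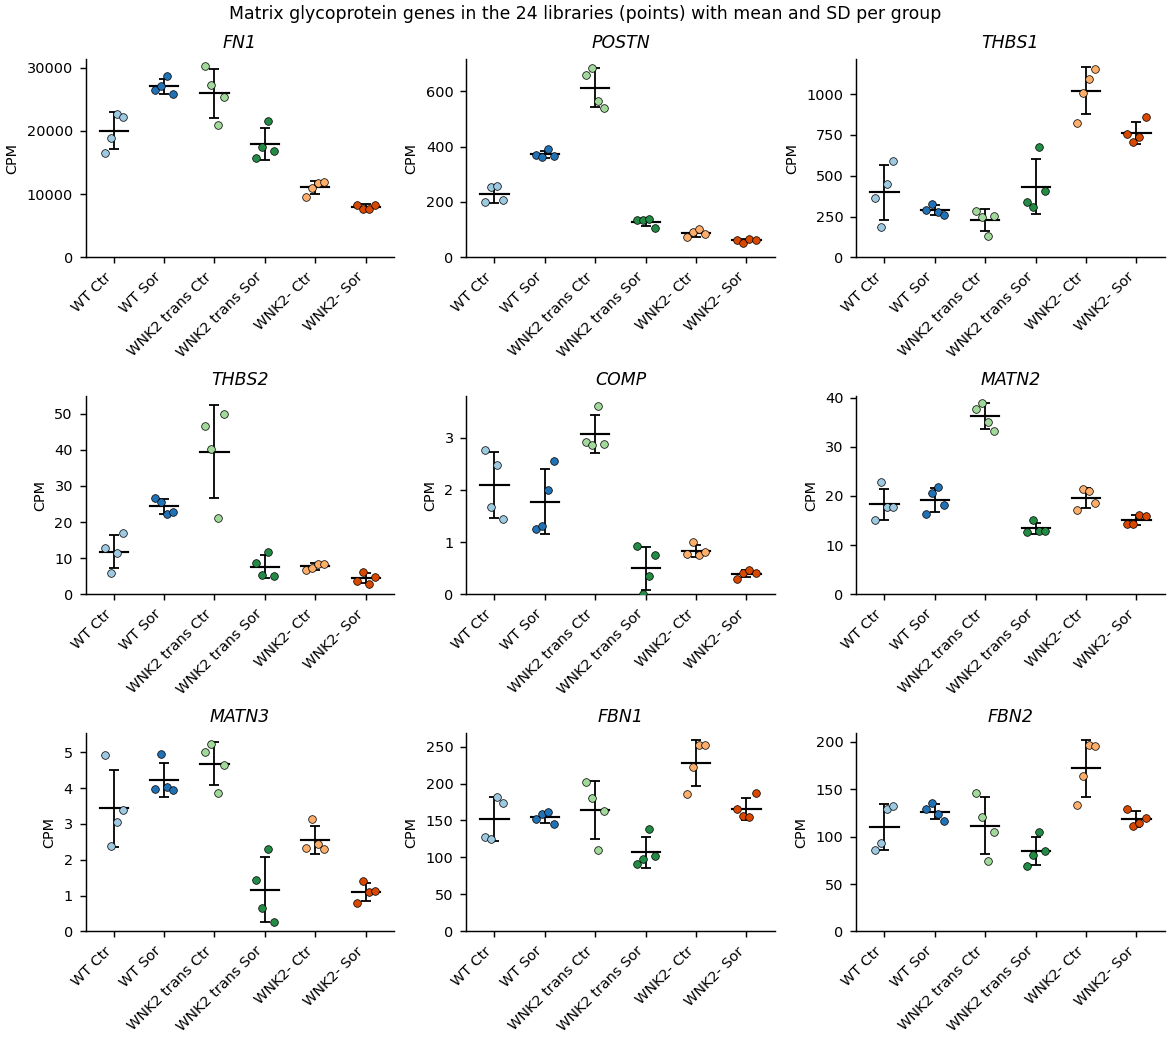
Level (y axis, CPM, starting at 0) of the 9 members with reads in each of the 24 libraries (points), by group (x axis), with the mean and SD of 4 libraries. POSTN runs from 51.8 to 684 CPM with most groups apart, THBS1 is highest in the WNK2- groups, and the fibrillins differ less between groups.

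The first comparison asks what 7 days of sorbitol did to wild-type cells. THBS2, POSTN and FN1 were higher in WT Sor than in WT Ctr, and no member was called lower. POSTN, a fasciclin-domain protein of fibrous tissue, measured 198.8, 255.3, 258.2 and 205.2 CPM in the WT Ctr libraries and 367.6, 363.7, 391.7 and 366.4 CPM in WT Sor. The 2 groups did not overlap, and the log2 fold change was 0.70 (SE 0.11, edgeR adjusted p = 8.88e-05), a 1.62-fold rise. In bulk RNA a change in the share of cells that express a gene and a change in RNA per cell cannot be told apart. THBS2, a thrombospondin of fibroblasts that shapes collagen fibrils, measured 12.8, 5.80, 11.5 and 16.9 CPM in WT Ctr and 26.7, 25.6, 22.2 and 22.9 CPM in WT Sor. It rose 2.08-fold (log2 fold change 1.05, SE 0.28, edgeR adjusted p = 0.00780), again without overlap. FN1 rose from 16500 to 22710 CPM in WT Ctr to 25760 to 28640 CPM in WT Sor, by 0.43 on the log2 scale (SE 0.11, edgeR adjusted p = 0.00687), or 0.25 once each library's trends with GC content and length were taken out (the GC and length correction). Summed fibroblast markers were 4430 to 5710 CPM in WT Ctr and 6330 to 6720 CPM in WT Sor, and endothelial markers 34.2 to 40.6 and 61 to 69.8 CPM. Their part in these differences was not tested.

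The 6 other members were not called after sorbitol in the libraries labelled WT. COMP (log2 difference −0.23, SE 0.38), MATN2 (0.07, SE 0.12), MATN3 (0.29, SE 0.32), FBN1 (0.02, SE 0.16) and FBN2 (0.20, SE 0.17) overlapped between the groups. THBS1 measured 364.4, 186.6, 450.9 and 592.4 CPM in WT Ctr and 289.9, 328, 278.6 and 259.2 CPM in WT Sor, a log2 difference of −0.46 (SE 0.26, edgeR adjusted p = 0.197). Without WT Ctr replicate 2, whose THBS1 level was the lowest of its group, the value was −0.70 (adjusted p = 0.0361), and after the GC and length correction it was −0.57 (adjusted p = 0.0484). Over all tested genes 24.1% were called in this comparison, 11.4% higher and 12.7% lower, beside 3 of 9 members, all higher. The median log2 difference was 0.20 over the members and 0.04 over all tested genes.

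With WNK2 trans Ctr in the place of WT Ctr, POSTN pointed the other way. The WNK2 trans Ctr libraries held 659.6, 684, 566 and 538.4 CPM of POSTN, all above WT Sor, and the log2 difference of WT Sor against WNK2 trans Ctr was −0.72 (SE 0.11, edgeR adjusted p = 6.95e-05). MATN2 was also lower by this comparison (−0.91, SE 0.12, edgeR adjusted p = 4.95e-06), THBS2 was at −0.70 (SE 0.27, adjusted p = 0.0834; −0.90 with adjusted p = 0.0220 without WNK2 trans Ctr replicate 3) and FN1 at 0.06 (SE 0.11). 2 of 9 members were called, both lower, where 15.1% of tested genes were called, 8.74% higher and 6.31% lower. The direction of the POSTN difference after sorbitol in wild-type cells, and the sign of the THBS2 value, thus depend on which of these groups is the isotonic reference, and the members' median was −0.15 (all tested genes −0.00).

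The second comparison sets WNK2- cells against WT cells in isotonic medium. POSTN, FN1 and COMP were lower in WNK2- Ctr, and THBS1, FBN1 and FBN2 were higher. POSTN measured 72.0, 91.1, 100.8 and 83.3 CPM in the WNK2- Ctr libraries, all below the lowest WT Ctr library, and was 2.64-fold lower (log2 fold change −1.40, SE 0.12, edgeR adjusted p = 4.82e-10). FN1 measured 9525, 11010, 11780 and 11880 CPM in WNK2- Ctr, with a log2 fold change of −0.86 (SE 0.11, edgeR adjusted p = 1.21e-06). COMP, the cartilage oligomeric matrix protein, measured 2.76, 1.68, 2.47 and 1.45 CPM in WT Ctr and 0.774, 0.993, 0.751 and 0.817 CPM in WNK2- Ctr. The COMP groups stood apart and the fold change was −1.32 on the log2 scale (SE 0.41, edgeR adjusted p = 0.0103).

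THBS1, a matricellular protein that activates latent TGF-beta and inhibits vessel growth, measured 824, 1005, 1094 and 1153 CPM in WNK2- Ctr. Each of these was above every WT Ctr library, and the rise was 2.56-fold (log2 fold change 1.35, SE 0.26, edgeR adjusted p = 0.000158). The fibrillins rose together, FBN1 from a mean of 152 ± 29.7 CPM (SD, n = 4) in WT Ctr to 227.8 ± 31.6 CPM (SD, n = 4) and FBN2 from 110.2 ± 23.9 to 172.2 ± 30.3 CPM. Their log2 fold changes were 0.58 (SE 0.16, edgeR adjusted p = 0.00389) and 0.65 (SE 0.17, edgeR adjusted p = 0.00311), and neither pair of groups overlapped. The GC and length correction brought them to 0.28 for FBN1 and 0.39 for FBN2, both still called. MATN2 (0.09, SE 0.12), MATN3 (−0.43, SE 0.32) and THBS2 (−0.59, SE 0.29) did not pass, and THBS2 passed without WT Ctr replicate 2 (−0.82, adjusted p = 0.0204) and after the correction (−0.64, adjusted p = 0.0493).

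In this comparison 6 of 9 members were called, 3 in each direction, where 42.1% of all tested genes were called, 20.7% higher and 21.5% lower. The members' median was −0.43 and that of all tested genes 0.00. Summed chondrocyte markers were 104 to 112 CPM in WT Ctr and 29.1 to 33 CPM in WNK2- Ctr, and their part in these differences was not tested. Genes within 2 Mb of FN1 had a median log2 difference of −0.41 over 21 tested neighbours, those near POSTN −0.30 over 17, and those near THBS1 0.03 over 47. In WNK2- Sor against WT Sor the medians of the same neighbours were −0.34 for FN1, 0.01 for POSTN and 0.29 for THBS1. With WNK2- Ctr set against WNK2 trans Ctr instead of WT Ctr, 9 of 9 members were called, 3 higher and 6 lower, where 47.7% of tested genes were called, 24% higher and 23.7% lower. The 6 members called against WT Ctr kept their direction: POSTN was at −2.82 (SE 0.12), FN1 at −1.23 (SE 0.11), COMP at −1.87 (SE 0.40), THBS1 at 2.15 (SE 0.27), FBN2 at 0.63 (SE 0.17) and FBN1 at 0.48 (SE 0.16), the fibrillins with overlapping groups. MATN2 (−0.89, SE 0.12), THBS2 (−2.34, SE 0.29) and MATN3 (−0.88, SE 0.32) were called lower as well. The call of FBN1 was lost after the GC and length correction (0.22, adjusted p = 0.0598) and without WNK2 trans Ctr replicate 3, WNK2- Ctr replicate 3 or WNK2- Ctr replicate 4, and that of MATN3 without any of 5 of the 8 libraries, WNK2 trans Ctr replicates 1 and 2 and WNK2- Ctr replicates 1, 3 and 4. The members' median was −0.89 here (all tested genes 0.01).

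The same comparison in sorbitol medium, WNK2- Sor against WT Sor, had larger differences for most members. 6 members were lower and only THBS1 was higher. POSTN measured 64.2, 51.8, 66.1 and 62.9 CPM in WNK2- Sor, 6.08-fold below WT Sor (log2 fold change −2.60, SE 0.12, edgeR adjusted p = 4.40e-15). FN1 measured 8325, 7566, 7717 and 8336 CPM, 3.38-fold lower (−1.76, SE 0.12, edgeR adjusted p = 3.92e-12). THBS2 measured 3.76, 6.17, 2.95 and 4.73 CPM, 5.51-fold lower (−2.46, SE 0.30, edgeR adjusted p = 1.87e-07). For these 3 genes no WNK2- Sor library reached a WT Sor library.

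MATN3, COMP and MATN2 were lower too. MATN3, the matrilin of growing cartilage, measured 3.97, 4.94, 4.03 and 3.95 CPM in WT Sor and 0.781, 1.41, 1.10 and 1.12 CPM in WNK2- Sor (−1.94, SE 0.34, edgeR adjusted p = 4.92e-05). COMP fell from 1.25 to 2.56 CPM to 0.297 to 0.473 CPM (−2.16, SE 0.44, edgeR adjusted p = 0.000251), on 8 or 9 reads in each WNK2- Sor library. MATN2 was at −0.34 (SE 0.12, edgeR adjusted p = 0.0218) and no longer passed without WT Sor replicate 2 or 3 or WNK2- Sor replicate 1 or 2, with adjusted p up to 0.0711. THBS1 measured 753.7, 705.5, 734.5 and 859.1 CPM in WNK2- Sor and was 2.64-fold higher (1.40, SE 0.26, edgeR adjusted p = 8.32e-05). The fibrillins overlapped between these groups, with log2 differences of 0.10 (SE 0.16) for FBN1 and −0.09 (SE 0.17) for FBN2. 7 of 9 members were called, where 46.3% of tested genes were called, 23.7% higher and 22.7% lower, and the members' median was −1.76 against 0.02 over all tested genes. The chondrocyte markers summed to 109 to 113 CPM in WT Sor and to 32.8 to 35 CPM in WNK2- Sor, and the fibroblast markers to 6330 to 6720 and 2270 to 2390 CPM. Their part in the differences was not tested.

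**Figure D3:**
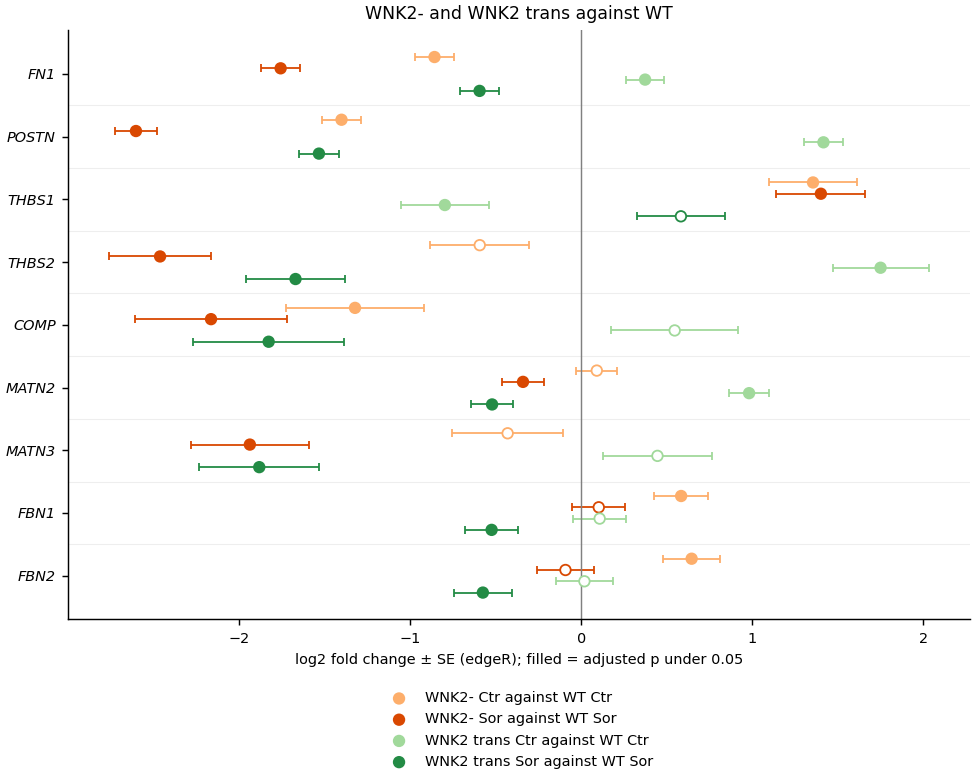
Log2 fold change (x axis, points) with its standard error (bars) of the 9 members (y axis) for WNK2- and WNK2 trans cells against WT cells, each in isotonic and in sorbitol medium. Filled points were called at an adjusted p under 0.05. THBS1 lies near 1.4 in both WNK2- comparisons, and POSTN lies at 1.42 for transfection in isotonic medium and at −1.53 in sorbitol.

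Sorbitol in WNK2- cells lowered 6 of the 9 members and raised none. POSTN was lower by 0.50 on the log2 scale (log2 fold change −0.50, SE 0.11, edgeR adjusted p = 0.00308) and FN1 changed by −0.47 (SE 0.11, edgeR adjusted p = 0.00485), both without overlap between WNK2- Ctr and WNK2- Sor. MATN3 changed by −1.21 (SE 0.35, edgeR adjusted p = 0.0176), from 2.31 to 3.13 CPM in WNK2- Ctr to 0.781 to 1.41 CPM. FBN2 (−0.54, SE 0.17, edgeR adjusted p = 0.0288), FBN1 (−0.46, SE 0.16, edgeR adjusted p = 0.0461) and MATN2 (−0.36, SE 0.12, edgeR adjusted p = 0.0400) lay close to the threshold. THBS2 (−0.82, SE 0.30, adjusted p = 0.0680), COMP (−1.08, SE 0.46) and THBS1 (−0.42, SE 0.26) were not called. In this comparison 14.9% of tested genes were called, 8.25% higher and 6.64% lower. The members' median was −0.50 and that of all tested genes 0.00. The count fell from 6 to 3 without any of WNK2- Ctr replicates 2, 3 and 4 or WNK2- Sor replicates 1 and 3. Against a minimum change of 0.3 on the log2 scale edgeR's test called 0 (6 at an unadjusted p under 0.05), where 6.13% of tested genes were called. DESeq2 without that minimum called 7, where 15.2% of its tested genes were called. A fit of the compared groups alone called 9, where 30.9% were called. Summed fibroblast markers were 4320 to 4580 CPM in WNK2- Ctr and 2270 to 2390 CPM in WNK2- Sor, and endothelial markers 23.1 to 28.8 and 37 to 47.9 CPM, and their part in the result was not tested. MATN3 no longer passed without WNK2- Ctr replicate 2 or WNK2- Sor replicate 1, MATN2 without any library but WNK2- Ctr replicate 1, FBN1 without any but WNK2- Ctr replicate 1 and WNK2- Sor replicate 4, and FBN2 without WNK2- Ctr replicate 3 or 4 or WNK2- Sor replicate 2, 3 or 4. THBS2 passed without WNK2- Sor replicate 2 (−1.02, adjusted p = 0.0371).

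Whether sorbitol acted differently in WNK2- and WT cells was tested by the interaction, the difference of the 2 sorbitol effects. It was called for 4 members, all with a lower response in WNK2- cells. POSTN had a difference of −1.20 (SE 0.16, edgeR adjusted p = 2.22e-05), from a rise in WT to a fall in WNK2- cells. FN1 differed by −0.90 (SE 0.16, edgeR adjusted p = 0.000646) and THBS2 by −1.87 (SE 0.41, edgeR adjusted p = 0.00477). MATN3 differed by −1.51 (SE 0.47, edgeR adjusted p = 0.0462), which no longer passed on leaving out any of 14 of the 16 libraries, all but WT Ctr replicate 1 and WNK2- Sor replicate 2 (adjusted p up to 0.107). FBN2 (−0.74, SE 0.24) had an adjusted p of 0.0521 and passed without WT Ctr replicates 3 or 4 or WNK2- Ctr replicate 1, and MATN2 (−0.43, SE 0.17) passed only without WT Ctr replicate 2. FBN1 (−0.48, SE 0.22), COMP (−0.84, SE 0.60) and THBS1 (0.05, SE 0.36) were not called. Over all tested genes 8.65% had a called interaction, 3.99% positive and 4.66% negative, and the members' median was −0.84 (all tested genes −0.01). With WNK2 trans Ctr in the place of WT Ctr, a choice made after the WNK2 levels were seen, edgeR called the interaction for 0 of 9 members (5 at an unadjusted p under 0.05), where 3.39% of tested genes were called, 1.09% positive and 2.30% negative. POSTN was then at 0.21 (SE 0.16, edgeR adjusted p = 0.643), THBS2 at −0.12 (SE 0.40), FN1 at −0.53 (SE 0.16, edgeR adjusted p = 0.0717) and MATN3 at −1.06 (SE 0.47). The 4 calls thus rest on WT Ctr as the isotonic reference.

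**Figure D4:**
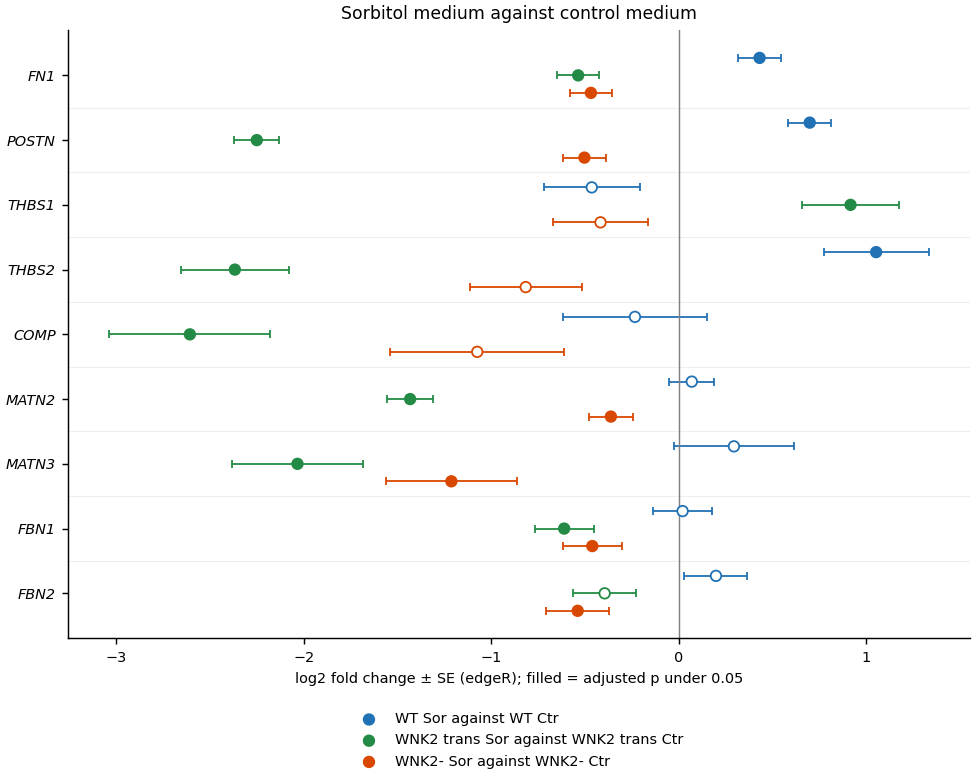
Log2 fold change (x axis, points) with its standard error (bars) of the 9 members (y axis) for sorbitol against isotonic medium in WT, WNK2 trans and WNK2- cells. Filled points were called at an adjusted p under 0.05. POSTN and THBS2 lie above 0 in WT, at 0.70 and 1.05, and below 0 in WNK2 trans cells, at −2.25 and −2.37.

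The libraries labelled WNK2 trans Ctr held more of several members than those labelled WT Ctr. POSTN was 2.67-fold higher (log2 fold change 1.42, SE 0.11, edgeR adjusted p = 2.61e-09) and every WNK2 trans Ctr library lay above every WT Ctr library. MATN2 measured 15.2, 22.8, 17.7 and 17.7 CPM in WT Ctr and 37.7, 39.0, 35.0 and 33.1 CPM in WNK2 trans Ctr, a 1.97-fold difference (0.98, SE 0.12, edgeR adjusted p = 2.03e-06). THBS2 measured 46.5, 40.3, 21.1 and 49.9 CPM in WNK2 trans Ctr and was 3.36-fold higher (1.75, SE 0.28, edgeR adjusted p = 8.96e-05). The 3 groups of values did not overlap with WT Ctr, and replicate 3 held the lowest THBS2 value. FN1 (0.37, SE 0.11, edgeR adjusted p = 0.0289) and THBS1 (−0.80, SE 0.26, edgeR adjusted p = 0.0416) passed narrowly with overlapping groups. The call of FN1 was lost without WT Ctr replicate 1 or 2 or WNK2 trans Ctr replicate 1 or 2, and that of THBS1 without WT Ctr replicate 3 or 4 or WNK2 trans Ctr replicate 2, 3 or 4.

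COMP (0.55, SE 0.37), MATN3 (0.45, SE 0.32), FBN1 (0.11, SE 0.16) and FBN2 (0.02, SE 0.17) were not called in this comparison. COMP measured 2.91, 2.86, 3.61 and 2.88 CPM in WNK2 trans Ctr, all above WT Ctr. 5 of 9 members were called, 4 higher and 1 lower, where 12.5% of tested genes were called, 5.57% higher and 6.98% lower. The count was 3 without WNK2 trans Ctr replicate 2, and the members' median was 0.45 (all tested genes 0.01). Since WNK2 reads were fewer in WNK2 trans Ctr than in WT Ctr, these values compare the libraries so labelled. Summed fibroblast markers were 4430 to 5710 CPM in WT Ctr and 7540 to 8730 CPM in WNK2 trans Ctr, without overlap, and their part in the result was not tested. The direction would turn for each gene if the labels were exchanged.

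In sorbitol medium the transfected cells held less of 8 of the 9 members than WT cells. POSTN measured 134.5, 133.6, 138.5 and 107.6 CPM in WNK2 trans Sor, 2.90-fold below WT Sor (log2 fold change −1.53, SE 0.12, edgeR adjusted p = 2.58e-10). THBS2 measured 8.71, 5.25, 11.6 and 5.10 CPM, 3.18-fold lower (−1.67, SE 0.29, edgeR adjusted p = 7.86e-05). MATN3 measured 1.44, 0.656, 2.30 and 0.250 CPM, 3.69-fold lower (−1.88, SE 0.35, edgeR adjusted p = 0.000205). The WNK2 trans Sor libraries lay below the WT Sor libraries for all 3 genes, although MATN3 varied widely among them. COMP had 14, 0, 6 and 15 reads in these libraries, and its log2 fold change was −1.83 (SE 0.44, edgeR adjusted p = 0.00255).

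FN1, the fibrillins and MATN2 had smaller differences. FN1 measured 15670, 17490, 21550 and 16830 CPM in WNK2 trans Sor, 1.51-fold below WT Sor (−0.59, SE 0.11, edgeR adjusted p = 0.000251). FBN2 was at −0.58 (SE 0.17, edgeR adjusted p = 0.0110), FBN1 at −0.52 (SE 0.16, edgeR adjusted p = 0.0126) and MATN2 at −0.52 (SE 0.12, edgeR adjusted p = 0.00185), each without overlap. THBS1 was the exception, at 0.58 (SE 0.26, edgeR adjusted p = 0.0847), with 340.7, 308.3, 677.3 and 404.5 CPM in WNK2 trans Sor. Called genes made up 31.7% of those tested, 16.1% higher and 15.5% lower, and the members' median was −0.59 against 0.01. The comparison uses neither WT Ctr nor WNK2 trans Ctr, although WNK2 in WT Sor was low and overlapped the low end of the WNK2- range. Summed fibroblast markers were 3320 to 3930 CPM in WNK2 trans Sor and 6330 to 6720 CPM in WT Sor, chondrocyte markers 124 to 175 and 109 to 113 CPM, and endothelial markers 103 to 109 and 61 to 69.8 CPM, and their part in the result was not tested.

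Sorbitol in the transfected cells gave the same direction against their own isotonic group. 7 members were lower in WNK2 trans Sor than in WNK2 trans Ctr and THBS1 was higher. POSTN was 4.76-fold lower (−2.25, SE 0.12, edgeR adjusted p = 7.11e-14), COMP 6.10-fold lower (−2.61, SE 0.43, edgeR adjusted p = 2.19e-05), THBS2 5.16-fold lower (−2.37, SE 0.29, edgeR adjusted p = 2.75e-07) and MATN3 4.09-fold lower (−2.03, SE 0.35, edgeR adjusted p = 3.64e-05). MATN2 measured 12.7, 15.1, 12.9 and 13.0 CPM in WNK2 trans Sor, 2.70-fold lower (−1.43, SE 0.12, edgeR adjusted p = 5.09e-10). FN1 (−0.54, SE 0.11) and FBN1 (−0.61, SE 0.16) were called lower with overlapping groups, and the GC and length correction gave −0.90 and −0.94. Summed fibroblast markers were 7540 to 8730 CPM in WNK2 trans Ctr and 3320 to 3930 CPM in WNK2 trans Sor, and endothelial markers 24.4 to 40.6 and 103 to 109 CPM, and their part in the result was not tested.

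THBS1 rose 1.89-fold (0.92, SE 0.26, edgeR adjusted p = 0.00498). Without WNK2 trans Sor replicate 3, which held 677.3 CPM, the THBS1 value was 0.61 and not called (adjusted p = 0.0516). FBN2 was at −0.40 (SE 0.17, adjusted p = 0.0554) and passed without WNK2 trans Ctr replicate 3 or WNK2 trans Sor replicate 3, and after the correction (−0.67, adjusted p = 2.26e-05). Of all tested genes 48% were called here, 24.3% higher and 23.7% lower, and the members' median was −1.43 (all tested genes 0.01). Against WT Ctr instead of WNK2 trans Ctr, 5 of 9 members were called, all lower: COMP (−2.06, SE 0.44), MATN3 (−1.59, SE 0.36), POSTN (−0.84, SE 0.11), FBN1 (−0.50, SE 0.16) and MATN2 (−0.45, SE 0.12). THBS2 (−0.62, SE 0.29), FBN2 (−0.38, SE 0.17), FN1 (−0.16, SE 0.11) and THBS1 (0.12, SE 0.26) were not called there, where 39.2% of tested genes were called, 19.8% higher and 19.5% lower. FBN1 lost its call without WT Ctr replicate 3, THBS2 gained one without WT Ctr replicate 2 or WNK2 trans Sor replicate 3, and FBN2 gained one without WT Ctr replicate 1 or 2 or WNK2 trans Sor replicate 3. After the GC and length correction 8 of 9 were called, where 53% of tested genes were called. FN1 was then at −0.55 (edgeR adjusted p = 1.1e-06), THBS2 at −0.70 (edgeR adjusted p = 0.0331), FBN2 at −0.69 (edgeR adjusted p = 1.87e-05) and FBN1 at −0.89. The members' median was −0.50 (all tested genes −0.02).

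The interaction of transfection and sorbitol was called for 8 members. It was negative for THBS2 (−3.42, SE 0.40, edgeR adjusted p = 2.96e-07), POSTN (−2.95, SE 0.16, edgeR adjusted p = 5.79e-13), COMP (−2.37, SE 0.58, edgeR adjusted p = 0.00239), MATN3 (−2.33, SE 0.47, edgeR adjusted p = 0.000430) and MATN2 (−1.50, SE 0.17, edgeR adjusted p = 1.68e-07). It was negative and smaller for FN1 (−0.97, SE 0.16, edgeR adjusted p = 3.69e-05) and FBN1 (−0.63, SE 0.22, edgeR adjusted p = 0.0284). THBS1 had a positive interaction of 1.38 (SE 0.36, edgeR adjusted p = 0.00442), and FBN2 was at −0.59 (SE 0.24, adjusted p = 0.0538). The call of FBN1 was lost without WT Ctr replicate 1 or 2, WNK2 trans Ctr replicate 1 or 2 or WNK2 trans Sor replicate 2, and FBN2 gained one without WT Ctr replicate 3 or 4, WNK2 trans Ctr replicate 3 or WNK2 trans Sor replicate 3. Interactions were called for 35.5% of tested genes, 18.1% positive and 17.4% negative, and the members' median was −1.50 against 0.01. The GC and length correction gave −1.49 for COMP and −0.68 for FBN2, which was then called (edgeR adjusted p = 0.00145). With WT Ctr and WNK2 trans Ctr exchanged, edgeR called the interaction for 0 of 9 members (4 at an unadjusted p under 0.05), where 5.46% of tested genes were called, 3.04% positive and 2.42% negative. POSTN was then at −0.12 (SE 0.16), THBS2 at 0.08 (SE 0.40), MATN2 at 0.46 (SE 0.17), THBS1 at −0.22 (SE 0.36) and MATN3 at −1.44 (SE 0.47, edgeR adjusted p = 0.0744). All 8 calls thus rest on these isotonic groups as labelled.

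POSTN was highest in WNK2 trans Ctr (612 ± 70.7 CPM, SD, n = 4), followed by WT Sor (372.4 ± 13.0), WT Ctr (229.4 ± 31.7), WNK2 trans Sor (128.6 ± 14.1), the isotonic WNK2- cells (86.8 ± 12.2) and the WNK2- cells in sorbitol (61.3 ± 6.44). No neighbours in this order overlapped. FN1 went from WT Sor (27010 ± 1221 CPM) and WNK2 trans Ctr (25940 ± 3889), through WT Ctr (20030 ± 2917) and WNK2 trans Sor (17880 ± 2557) to WNK2- Ctr (11050 ± 1088) and WNK2- Sor (7986 ± 403). The first 4 groups overlapped with their neighbours in this order, and the WNK2- groups overlapped with none. THBS1 had another order at its ends, with WNK2- Ctr (1019 ± 143.5 CPM) and WNK2- Sor (763.2 ± 66.9) above all other groups and WNK2 trans Ctr (229.2 ± 65.7) lowest, and each of its neighbours in this order overlapped except WNK2- Sor with WNK2 trans Sor.

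The genes whose log2 CPM followed a member most closely over the 24 libraries are given as a description, since the libraries fall into 6 groups. For POSTN they were COL3A1, a fibrillar collagen (r = 0.98), and CYBRD1 (r = 0.98). For FN1 they were IGSF10 and ANTXR1 (r = 0.98 for both), and for THBS2 LRP1 (r = 0.96) and PTPRS (r = 0.95). THBS1 was followed by STK35 (r = 0.95) and INPP4A (r = 0.94), MATN2 by IL1RAP (r = 0.93) and ANKH (r = 0.91), MATN3 by SMO (r = 0.93) and ALX4 (r = 0.92), and COMP by CYBC1 (r = 0.94) and LMBR1L (r = 0.93). FBN1 and FBN2 followed each other (r = 0.95), and both followed FAT1 (r = 0.95 and 0.93).

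Within groups the members fell together in another way. The deviations of a library from its group mean agreed between FN1 and FBN1 (r = 0.95 over 24 libraries), FN1 and FBN2 (r = 0.95) and FBN1 and FBN2 (r = 0.95), although over the uncentred libraries FN1 was unrelated to either (r = −0.19 and −0.14). POSTN and FN1, with r = 0.92 over the uncentred libraries, had r = 0.53 within groups. THBS2 and POSTN had r = 0.90 over the uncentred libraries and −0.105 within groups. THBS1 went against FN1 and THBS2 over the uncentred libraries (r = −0.736 and −0.577) and with them within groups (r = 0.735 and 0.81). For THBS1 and POSTN the 2 values were −0.83 and 0.04. WNK2 trans Ctr replicate 3 held the lowest deviation of FN1 (−0.30), FBN1 (−0.53) and FBN2 (−0.55), and WNK2 trans Sor replicate 3 the highest of FN1 (0.28), FBN1 (0.39), THBS1 (0.72) and THBS2 (0.68). The cause was not tested.

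**Figure D5:**
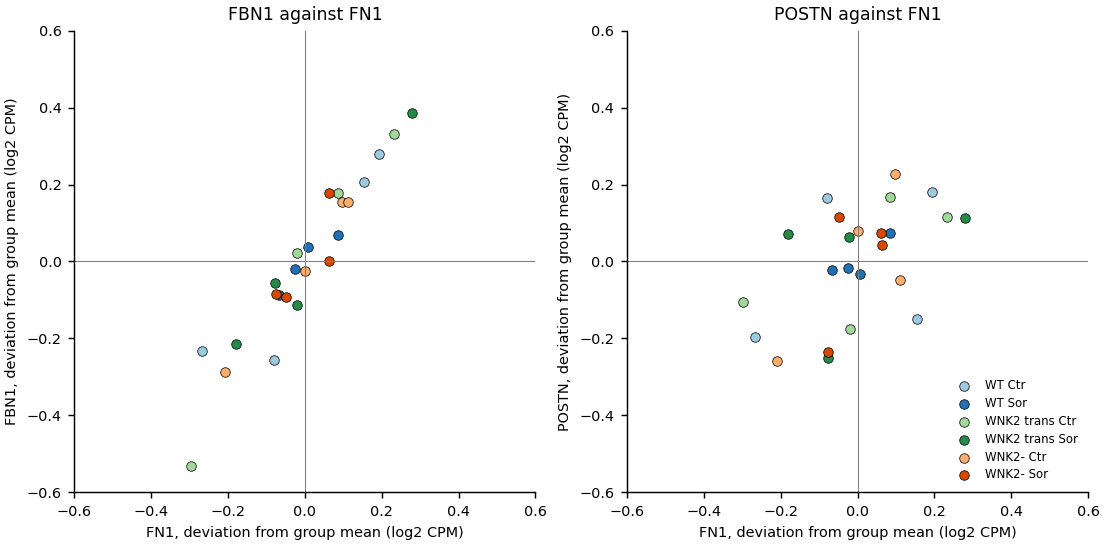
Deviation of each library from its group mean in log2 CPM for FBN1 (left, y axis) and POSTN (right, y axis) against FN1 (x axis), 24 libraries coloured by group. FBN1 and FN1 lie along a line (r = 0.95), while POSTN and FN1 scatter more (r = 0.53).

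Other genes of the matrix were described from 4 lists, with calls by edgeR's adjusted p as for the members and the same percentages of all tested genes as given above. Among microfibril and elastic fibre partners, 10 of 13 were tested, among them the small microfibril proteins MFAP2 and MFAP4 and the fibulin FBLN2. In WNK2- Ctr against WT Ctr, 2 rose and 5 fell, with MFAP2 at −3.27 (SE 0.46), FBLN2 at −2.46 (SE 0.25) and MFAP4 at −2.17 (SE 0.16) on the log2 scale. Against WT Sor, WNK2- Sor had 1 higher and 7 lower, with MFAP4 at −3.26 (SE 0.16) and MFAP2 at −3.26 (SE 0.43), and WNK2 trans Sor had 1 higher and 7 lower, with FBLN2 at −2.30 (SE 0.22) and MFAP4 at −2.26 (SE 0.15). The 2 that rose in WNK2- Ctr, named after their values were seen, were FBLN5 (1.12, SE 0.42) and THSD4 (0.42, SE 0.14). Sorbitol in WT cells gave 3 higher, FBLN2 (1.19, SE 0.21) and MFAP4 (1.00, SE 0.15) among them, and 1 lower, EFEMP1 (−0.77, SE 0.09). List medians in the same order were −0.47, −0.97, −0.78 and 0.30, beside medians of all tested genes of 0.00, 0.02, 0.01 and 0.04. With WNK2 trans Ctr in the place of WT Ctr, sorbitol in WT cells gave 1 higher, THSD4 (0.88, SE 0.14), and 1 lower, EFEMP1 (−1.29, SE 0.09), with a list median of −0.35. FBLN2 (−0.49, SE 0.19) and MFAP4 (−0.34, SE 0.14) were then not called, and their values had the other sign. WNK2- Ctr against WNK2 trans Ctr gave 2 higher and 7 lower, with a median of −0.85.

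Family relatives of the members, such as the latent TGF-beta binding proteins that sit on fibrillin microfibrils, were tested in 11 of 13. In WNK2- Ctr against WT Ctr 1 rose and 3 fell, the named ones being LTBP1 (−1.27, SE 0.12), LTBP4 (−1.16, SE 0.18) and LTBP2 (−0.54, SE 0.11), and in WNK2- Sor against WT Sor 1 rose and 6 fell, with LTBP4 at −2.25 (SE 0.18). In WNK2 trans Sor against WT Sor 1 rose and 3 fell, with LTBP4 at −1.36 (SE 0.18). After sorbitol in WT cells 2 rose, THBS3 (1.02, SE 0.29) and TNXB (0.75, SE 0.25), and TGFBI, a relative of periostin, fell (−0.40, SE 0.07). The 4 medians were −0.20, −0.43, −0.20 and 0.20. Against WNK2 trans Ctr, WT Sor had 2 higher and 2 lower (median 0.23), and WNK2- Ctr had 1 higher and 6 lower (median −0.30).

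Of 12 cell surface receptors of the members 7 were tested. CD47, a receptor of THBS1, was lower in WNK2- Ctr than in WT Ctr (−0.70, SE 0.12) and syndecan SDC1, a receptor of fibronectin, was higher (0.64, SE 0.16), with 1 called in each direction. In WNK2- Sor against WT Sor 2 were lower, among them ITGB5 (−0.39, SE 0.08), and none was higher. In WNK2 trans Sor against WT Sor 1 was higher, SDC4 (0.47, SE 0.08), and 2 were lower, ITGB5 (−0.28, SE 0.08) among them. Sorbitol in WT cells gave 1 higher and 2 lower, CD47 (−0.37, SE 0.11) and SDC4 (−0.35, SE 0.08). The 1 higher was CD36, a thrombospondin receptor of low level named after its values were seen, at 1.97 (SE 0.36). CD36 was also among the 2 lower in both sorbitol comparisons, at −0.89 (SE 0.32) in WNK2- Sor and −0.98 (SE 0.32) in WNK2 trans Sor. The list medians lay between −0.28 and 0.02. Against WNK2 trans Ctr, edgeR called 0 receptors in WT Sor, with CD36 at −0.19 (SE 0.30), and 2 higher and 2 lower in WNK2- Ctr, with medians of 0.03 and −0.08.

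Matricellular proteins of other families were tested in 7 of 12. SPARC, a collagen-binding protein, was lower in WNK2 trans Sor than in WT Sor (−1.05, SE 0.09), as was SMOC1 (−0.92, SE 0.12), and FSTL1 was higher (1.87, SE 0.22), with 2 called in each direction. In WNK2- Ctr against WT Ctr 2 were higher and 2 lower, FSTL1 (2.10, SE 0.23) and CCN1 (0.73, SE 0.12) among the first and SMOC1 (−1.17, SE 0.12) among the second. In WNK2- Sor against WT Sor 2 were higher and 3 lower, FSTL1 at 2.71 (SE 0.22), and after sorbitol in WT cells 3 were higher and none lower, SMOC1 (0.76, SE 0.12) and CCN1 (0.70, SE 0.12) among them. Medians were 0.43 in WNK2 trans Sor, −0.10 in WNK2- Ctr, 0.20 in WNK2- Sor and 0.13 in WT Sor. Against WNK2 trans Ctr, WT Sor had 1 higher, CCN1 (0.77, SE 0.12), and 1 lower, SPARC (−0.64, SE 0.09), with SMOC1 at −0.26 (SE 0.12, not called) and a median of −0.15. WNK2- Ctr then had 2 higher and 4 lower, with a median of −0.69.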

How the data were processed

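Reads of T/C-28a2 cells were counted per Ensembl gene by the authors, who deposited raw read counts for 24 libraries without normalization (poly(A) RNA, NEBNext Ultra libraries, HTSeq). The submitters' processing notes name FastQC 0.11.9, HISAT2 2.2.1, HTSeq 2.0.2, DESeq2 1.38.3 and GRCh38. Groups follow the labels, and doses and times follow the study's methods and figure legends. The study's methods state 4 biological replicates per group, with no further word on what separates them, and name other versions of HTSeq and DESeq2 than these notes. Total counts had a median of 17506505.5, so that 1 read was worth well under 0.1 CPM.

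Here counts were tested in R 4.3.3 with edgeR 4.0.16 (filterByExpr with a minimum count of 10 and a minimum total of 15, TMM factors, quasi-likelihood F test of 6 group means, Benjamini-Hochberg adjustment over 16600 genes, threshold 0.05). Each SE was taken from the fold change and the root of its F statistic. The 24 tables held the same 62703 identifiers; 62625 matched a symbol and 58279 a GENCODE 29 position. The test was checked on simulated counts with known changes before use. All members are named, with the 2 genes most like each (mean log2 CPM of at least 3) and up to 3 called genes per list and comparison (mean log2 CPM of at least 1). Members and lists were chosen with earlier results of these data known. Alternatives were DESeq2 1.42.0, RLE and upper-quartile factors, other filters, a fit of the compared groups, a replicate block, a minimum change of 0.3, thinning, a correction for GC content and length, each library left out, and, for the interactions, WT Ctr and WNK2 trans Ctr exchanged (added after the data were seen).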

Additional observations from a re-analysis of the deposited data

Results flagged for a closer look

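In 6 of 54 sets of 4 libraries, 9 members by 6 groups, 1 library lay far from the other 3 by Dixon's ratio, which chance flags in about 1 of 20. COMP in WNK2 trans Ctr replicate 3 was at 3.61 CPM, the others at 2.86 to 2.91. MATN2 in WNK2 trans Sor replicate 2 was at 15.1 CPM, the others at 12.7 to 13.0. MATN3 was high in WT Sor replicate 2 (4.94 CPM, the others 3.95 to 4.03) and in WNK2- Ctr replicate 2 (3.13, the others 2.31 to 2.44). POSTN was high in WT Sor replicate 3 (391.7 CPM, the others 363.7 to 367.6) and low in WNK2 trans Sor replicate 4 (107.6, the others 133.6 to 138.5).

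The sorbitol effect differed by the interaction test between WNK2- and WT cells for MATN3 (−1.51 on the log2 scale), THBS2 (−1.87), POSTN (−1.20) and FN1 (−0.90). Between WNK2 trans and WT cells it differed for COMP (−2.37), MATN2 (−1.50), MATN3 (−2.33), THBS2 (−3.42), POSTN (−2.95), FN1 (−0.97), FBN1 (−0.63) and, upwards, THBS1 (1.38). All 12 differences use WT Ctr, and the last 8 also WNK2 trans Ctr. With these isotonic groups exchanged, none of the 12 was called by edgeR, as given in the report with the counts at an unadjusted p.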

How the results depend on the processing

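Of 108 member results under 2082 alternatives, 1900 kept direction and side of the threshold, 108 lost and 43 gained a call and 31 turned. 40 of 71 calls held under all alternatives run for them and 4 of the 71 turned, each with the isotonic groups exchanged. POSTN and THBS2 in WT Sor against WT Ctr (0.70 and 1.05) count as held, although WT Sor against WNK2 trans Ctr gave −0.72 and −0.70 (the latter not called). The exchange was run for the interactions alone, so the tally does not test other calls that rest on WT Ctr or WNK2 trans Ctr. That exchange, added after the data were seen, gave 0 in place of 4 members for the interaction of genotype and sorbitol, where 3.39% of tested genes were called. POSTN (0.21), MATN2 (0.55) and THBS1 (−0.75) turned there. For the interaction of transfection and sorbitol the exchange gave 0 in place of 8, where 5.46% of tested genes were called. MATN2 (0.46), THBS2 (0.0791) and THBS1 (−0.22) turned there. Percentages beside the next counts are the shares of all tested genes called at the same setting. Against a minimum change of 0.3 the members called were 3 for WNK2 trans Ctr against WT Ctr (4.84%) and 5 for WNK2 trans Sor against WT Sor (15.9%). They were 0 for WNK2- Sor against WNK2- Ctr (6.13%) and 3 for WNK2 trans Sor against WT Ctr (22.4%). With at least 10 counts in every library, where COMP and MATN3 were not tested, the last 2 gave 3 (16.9%) and 3 (40.2%). With only the groups compared, WNK2 trans Ctr against WT Ctr gave 3 (5.22%) and WNK2 trans Sor against WT Ctr 2 (20.3%). After the GC and length correction the latter gave 8 (53%). Without 1 library the count was 3 to 4 for WNK2 trans Ctr against WT Ctr and 3 to 6 for WNK2- Sor against WNK2- Ctr. In all ranges that crossed 0, which were of uncalled values, leaving out 1 library gave −0.00528 to 0.195 for MATN2 and −0.0581 to 0.134 for FBN1 (WT Sor against WT Ctr), −0.00203 to 0.257 for FBN1 and −0.133 to 0.171 for FBN2 (WNK2 trans Ctr against WT Ctr), −0.223 to 0.270 for THBS1 in the interaction of genotype and sorbitol, −0.183 to 0.368 for THBS1 (WNK2 trans Sor against WT Ctr), and −0.0232 to 0.143 for FN1 and −0.227 to 0.0306 for FBN1 (WT Sor against WNK2 trans Ctr). The replicate block turned 1 uncalled value, THBS1 in the interaction of genotype and sorbitol (−0.00913). With the block, 5 in place of 6 members were called for WNK2- Sor against WNK2- Ctr, where 14.2% of tested genes were called. The counts were 3 in place of 4 for the interaction of genotype and sorbitol (7.97%) and 4 in place of 5 for WNK2 trans Ctr against WT Ctr (12.1%). The other 9 comparisons had the same count. The deviations of same-numbered libraries had r of −0.273 to 0.223 in 28 pairs, 4 over 0.1. This cannot settle whether the numbers pair samples, which the sources used here do not state. The GC and length correction turned 7 uncalled values: MATN2 (−0.0283) and FBN1 (−0.19) for WT Sor against WT Ctr, MATN2 (−0.0313) for WNK2- Ctr against WT Ctr, FBN1 (−0.0863) for WNK2- Sor against WT Sor, FBN2 (−0.0263) for WNK2 trans Ctr against WT Ctr, FN1 (−0.11) for WT Sor against WNK2 trans Ctr and THBS1 (−0.14) for WNK2 trans Sor against WT Ctr. Over the alternatives the number of all genes called (as reported, in parentheses) was 1421 to 5902 (4008) for WT Sor against WT Ctr, 4378 to 8204 (6996) for WNK2- Ctr against WT Ctr, 5183 to 9804 (7690) for WNK2- Sor against WT Sor, 747 to 3074 (2082) for WNK2 trans Ctr against WT Ctr, 2642 to 6628 (5254) for WNK2 trans Sor against WT Sor, 1018 to 4824 (2473) for WNK2- Sor against WNK2- Ctr, 5310 to 9129 (7972) for WNK2 trans Sor against WNK2 trans Ctr, 522 to 2250 (1436) for the interaction of genotype and sorbitol, 906 to 6907 (5897) for that of transfection and sorbitol, 979 to 4922 (2499) for WT Sor against WNK2 trans Ctr, 5338 to 8930 (7924) for WNK2- Ctr against WNK2 trans Ctr and 3018 to 8477 (6509) for WNK2 trans Sor against WT Ctr. Causes were not tested.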
